A study of Sus scrofa with 26 samples.

Results

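The aldo-keto reductases of the AKR1 and AKR7 families were followed in subcutaneous adipose tissue (SCAT) of pigs, probe by probe. A probe was taken as a member when the gene name, the accessions or the description in the scanner files placed it in AKR1 or AKR7. This gave 31 probes of the 60305 on the array. Of these, 25 could be assigned to 9 pig genes (AKR1E2, AKR1CL1, LOC733635, AKR1A1, AKR1B1, AKR1D1, AKR7A2 and 2 genes that RefSeq both calls AKR1C1) and 6 could not. AKR1E2 was chosen by its values in these arrays, since it was the named gene with the smallest p for F1 minus the mean of both parent breeds among 20908 named probes tested, and its breed levels are therefore given as a description without a test. The other members were chosen by name.

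RNA came from 26 castrated male pigs, 1 per array, which were Creole, Large White (LW) or a cross of both (F1). They were slaughtered at thermoneutrality (TN, 24 °C) or after heat stress (HS) of 5 days by the labels and 4 or 5 by the methods. The label of each array gives 30 °C for HS, whereas its protocol and the methods give 32 °C. There were 3 Creole, 4 F1 and 4 LW pigs at TN and 5 pigs of each breed under HS. Each sample was a piece of whole tissue, so that fewer cells of a type and less RNA per cell cannot be told apart. The TN pigs were killed first, so that temperature, slaughter day and age cannot be told apart either, and littermates, which the methods mention, are not marked in the labels.

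Aldo-keto reductases are soluble enzymes that reduce aldehydes and ketones with NADPH. AKR1A1 (aldehyde reductase) reduces glucuronate and many other aldehydes, AKR1B1 (aldose reductase) makes sorbitol from glucose and also reduces prostaglandin H, and AKR1C enzymes reduce or oxidise steroids and prostaglandins. AKR1D1 is the steroid 5β-reductase of bile acid synthesis, AKR1E2 reduces 1,5-anhydrofructose, a product of glycogen breakdown, and AKR7A2 reduces succinic semialdehyde. In adipose tissue the AKR1B and AKR1C enzymes are known for handling prostaglandins and sex steroids that act on fat cells.

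The genes lie on 3 chromosomes of the pig assembly Sscrofa11.1, with positions from RefSeq. A cluster on chromosome 10 holds, in order, AKR1CL1 (chr10:65559508-65572892, gene 654406), AKR1C1 (chr10:65580297-65594998, gene 733634, named LOC733634 in the files), LOC733635 (chr10:65630190-65642383), a second AKR1C1 (chr10:65650223-65679878, gene 733694) and AKR1E2 (chr10:65680314-65704701, gene 733633). AKR7A2 (chr6:77754172-77761609, gene 100511331) and AKR1A1 (chr6:165811245-165825168, gene 396924) are on chromosome 6. AKR1D1 (chr18:11416065-11532846, gene 100520813) and AKR1B1 (chr18:14593516-14752316, gene 396816) are on chromosome 18. O4483, O14756, O9215 and A_72_P257817 were assigned to AKR7A2, AKR1A1, AKR1D1 and AKR1B1 by symbol rather than by accession. The positions are of whole genes, since the probes themselves were not placed on a genome.

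The probe sequences decide what can be said of the AKR1C members, whose genes are close copies of each other. The 4 probes that the accessions tie to AKR1CL1 read different stretches of that transcript. A further 3 probes carry names of human genes (Akr1c1, AKR1C4 and AKR1C2) and matched no single pig gene, and they are called here the AKR1C-named probes. Of all pairs among the 31 probes, 4 aligned over at least 20 bases, and the only alignment that joined an AKR1CL1 probe to an AKR1C-named one ran from the end of A_72_P715443 to the start of O8059, with 16 identical bases of 21, shown in capitals. Both are 60 bases long and are written 5′ to 3′ as in the scanner files, like those after them.
A_72_P715443 (AKR1CL1): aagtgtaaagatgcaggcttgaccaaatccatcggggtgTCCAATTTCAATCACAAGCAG
O8059 (named Akr1c1): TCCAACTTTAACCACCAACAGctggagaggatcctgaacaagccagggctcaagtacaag
A_72_P716823 (AKR1CL1): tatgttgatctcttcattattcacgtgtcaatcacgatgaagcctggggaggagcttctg
A_72_P759584 (AKR1CL1, named AKR1C4): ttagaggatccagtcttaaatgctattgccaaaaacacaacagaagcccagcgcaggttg
O8060 (named AKR1C4): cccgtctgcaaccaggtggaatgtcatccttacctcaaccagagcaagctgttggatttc
O9163 (named AKR1C2): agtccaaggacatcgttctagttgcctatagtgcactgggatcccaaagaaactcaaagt

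The fourth AKR1CL1 probe, A_72_P354778, starts farther along the transcript than the others. A 30-base stretch of it holds the polyadenylation hexamer AATAAA, in capitals. The hexamer was searched on the strand as written and as its reverse complement TTTATT, and 6 of the 31 family probes held it as written and 1 as the complement, against 10.3% and 4.32% of all 60305 probes of 60 bases. The AKR1E2 probe, the only one for that gene, has a stop codon in each forward frame, and its first 30 bases are shown.
A_72_P354778 (AKR1CL1): gtagaggtgtttAATAAAataaatgtctga
A_72_P078096 (AKR1E2): cccacaaggatgtttgatggctcataagtt

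LOC733634 and LOC733635 cannot be told apart by 2 of their probes, which share 34 of 35 overlapping bases, in capitals.
A_72_P569209 (LOC733634): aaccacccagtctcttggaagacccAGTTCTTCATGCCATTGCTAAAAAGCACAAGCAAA
A_72_P440651 (LOC733635): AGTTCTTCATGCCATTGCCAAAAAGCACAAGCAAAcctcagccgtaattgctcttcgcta

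Levels are log2 of quantile-normalized median pixel intensities, and differences are log2 differences with SE, tested with limma and adjusted by Benjamini-Hochberg over 44703 probes that were well above background on at least 8 arrays (threshold 0.05). Levels of different probes are not set against each other. Of the 31 family probes 26 were tested, 21 of them well above background on all 26 arrays, and 8 of the 9 genes kept a tested probe of their own. LOC733635 kept only A_72_P440651, which also matched LOC733634. The 5 probes left out were A_72_P505297 and A_72_P672532 (AKR1C1), A_72_P302809 (LOC733635), A_72_P234082 (a tag described as aldose reductase) and A_72_P109181 (a tag described as AKR1B10).

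Under heat stress 10 of the 26 tested family probes fell and none rose. Over all tested probes 12.2% changed with temperature, and 7.02% fell. The probes that fell were the 4 of AKR1CL1, the 3 AKR1C-named, 2 of the 3 of AKR1B1 and 1 of the 2 of AKR7A2. The median HS minus TN difference was -0.18 over the family and 0.0024 over all tested probes. Breed counts leave out AKR1E2. In LW minus Creole 12 of the other 25 family probes were lower in LW and none higher, against 14.3% of all tested probes changed and 7.43% lower. These were the same 4 of AKR1CL1 and 3 AKR1C-named probes, 4 of the 5 of AKR1A1 and 1 of AKR7A2. Of the same 25 probes, 7 were higher in F1 than in LW, against 4.22% of all tested probes changed and 2.46% higher in F1. None of the 25 passed in F1 minus Creole by limma, where 0.262% of all tested probes did. At an unadjusted p under 0.05 there were 3 of the 25, against 9.75% of all tested probes. The breed comparisons share arrays, so their values are given side by side only.

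**Figure D1:**
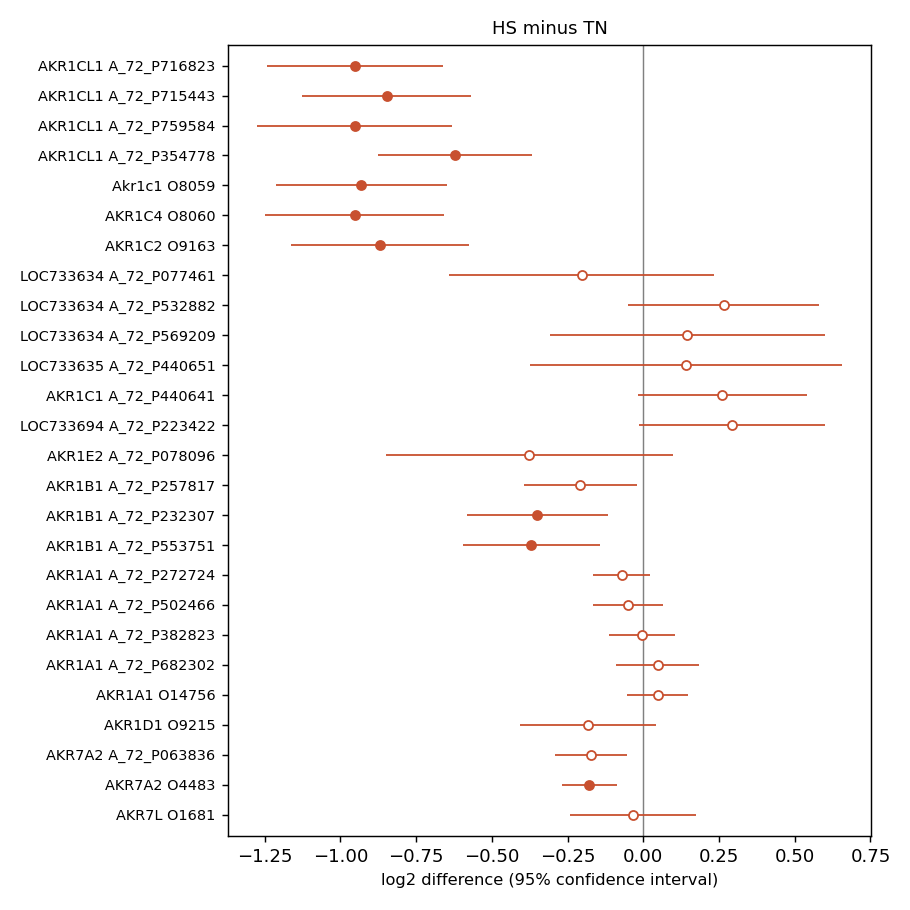
Log2 difference HS minus TN with its 95% confidence interval for each of the 26 tested family probes, from 26 arrays with breed as a fixed effect. Filled points passed the adjusted threshold, and all 10 of them lie below 0, led by the 7 AKR1CL1 and AKR1C-named probes between -0.95 and -0.62.

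AKR1E2 stood out by its spread among the F1 pigs. In Creole the log2 levels were 8.04, 7.89 and 7.56 at TN and 7.34, 7.37, 7.63, 7.44 and 7.63 under HS. In LW they were 7.65, 7.62, 7.37 and 7.34 at TN and 7.30, 7.42, 7.24, 7.23 and 7.23 under HS. The 17 parent arrays thus stayed within 7.23 to 8.04.

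In F1 the levels of AKR1E2 were 9.63, 7.40, 9.86 and 9.67 at TN and 9.18, 9.02, 7.47, 7.59 and 9.62 under HS. Thus 6 of the 9 F1 arrays lay above every parent array and 3 lay among them. The lowest of the 6 was 0.98 above the highest parent array, a 1.98-fold gap, and nothing was measured in between. Both kinds of level occurred at both temperatures, with 3 of 4 F1 arrays high at TN and 3 of 5 under HS, and on more than one slide, with the 6 high arrays on 4 slides and the other 3 F1 arrays on 3. Only 38 of the 44703 tested probes, 0.085%, had 6 or more F1 arrays above every parent array. Since AKR1E2 was chosen by this contrast, that rarity is no support for it.

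The gap in AKR1E2 was there under each of 3 other ways of processing the intensities. With scaling to the 75th percentile, with normexp background correction and in the table of the authors, 6 F1 arrays again lay above every parent array, with gaps of 1.16, 0.93 and 0.98. These reuse the arrays by which AKR1E2 was chosen, so they describe the processing only and are no support for the gap. The mean F1 level was 8.83 ± 1.04 (SD, n = 9), against 7.61 ± 0.246 (n = 8) in Creole and 7.38 ± 0.161 (n = 9) in LW, but with 2 kinds of level in F1 its mean describes no array. The F1 minus mid-parent difference, the contrast by which AKR1E2 was chosen, was 1.32 ± 0.24 (SE).

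**Figure D2:**
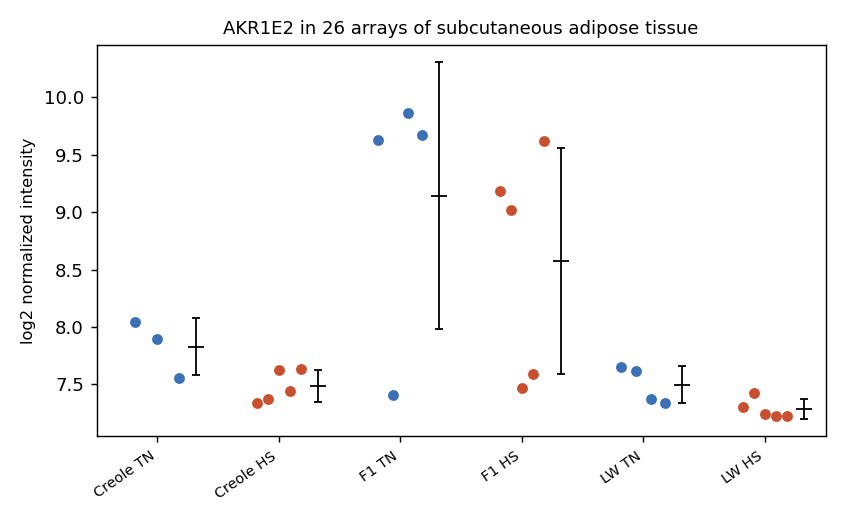
Log2 normalized intensity of AKR1E2 in each of the 26 arrays by breed and temperature (blue TN, red HS), with the group mean and SD as black bars. The 6 F1 points between 9.02 and 9.86 are separated from all others, which end at 8.04.

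Temperature was not used to choose AKR1E2, and its HS minus TN difference of -0.38 ± 0.23 (SE) did not pass (adjusted p = 0.307). The interval ran from -0.85 to 0.10, and over 14 alternatives the difference ran from -0.48 with array weights to -0.09 with the red blood cell score as a covariate (adjusted p up to 0.889), none past the threshold. It was lower under HS than the TN mean of its own breed in 13 of 15 arrays. The Creole, F1 and LW differences were -0.35, -0.57 and -0.21, with SEs of 0.44, 0.40 and 0.40 and adjusted p of 0.837, 0.516 and 0.85. These SEs pool all 6 groups, whose SDs were 0.98 to 1.16 in F1 and 0.083 to 0.25 in the parents, so they are wide for Creole and LW.

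The genes next to AKR1E2 were looked up for the same contrast. Of the 5 genes on each side in the RefSeq order, those after AKR1E2 had no assigned probe, and 4 of the 5 before it did, all of them family members. Their correlation with AKR1E2 over the 26 arrays was 0.40 for AKR1CL1, 0.47 for LOC733634, 0.33 for A_72_P440651 (LOC733635 or LOC733634) and -0.15 for AKR1C1 (gene 733694), each by its probe of highest mean level. The F1 minus mid-parent differences of these probes were 0.25, 0.34, 0.38 and -0.03.

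Among the named genes outside the family with levels most like AKR1E2 over the 26 arrays were SMTN (smoothelin, r = 0.75), STK11 (0.69), MARK2 (0.67), PDE2A (0.67), COQ3 (0.66), SEMA3G (0.64) and TXNL1 (0.64). The arrays fall into 2 clusters of AKR1E2 level, and how far these values rest on the 6 high arrays was not tested. The correlations are a description only. A probe without a gene name, A_72_P334948, came closer (r = 0.87) and was singled out after its values were seen. On the same 6 F1 arrays it lay between 8.52 and 8.73, and on the other 20 between 7.62 and 8.39. The same 6 pigs were therefore the highest for both probes.

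Lower levels under heat stress were seen at every probe of AKR1CL1, an AKR1C-like gene, and at the AKR1C-named probes. At A_72_P716823 the Creole levels were 14.76, 15.29 and 14.06 at TN and 13.70, 13.72, 14.34, 14.06 and 13.68 under HS. In F1 they were 15.14, 14.37, 14.88 and 14.56 at TN and 13.66, 13.33, 13.74, 13.93 and 14.00 under HS. In LW they were 13.63, 14.03, 14.25 and 13.61 at TN and 13.22, 12.50, 12.22, 12.87 and 13.47 under HS. In F1 and in LW every HS array lay below every TN array, whereas in Creole the temperatures overlapped.

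A_72_P716823 fell by 0.95 ± 0.14 (SE) on the log2 scale, 1.93-fold (adjusted p = 0.00022), and all 15 HS arrays were below the TN mean of their breed. The other 3 AKR1CL1 probes fell likewise, A_72_P759584 by 0.95 (adjusted p = 0.000508), A_72_P715443 by 0.85 (adjusted p = 0.000424) and A_72_P354778 by 0.62 (adjusted p = 0.00206). The AKR1C-named probes O8059, O8060 and O9163 fell by 0.93, 0.95 and 0.87, with adjusted p of 0.000204, 0.000245 and 0.000526. For each of the 7 probes all 15 HS arrays were on the lower side. With the fibroblast and matrix score as a covariate A_72_P716823 was at -0.61 and A_72_P354778 at -0.34, and the call of the latter was lost (adjusted p = 0.101), as with the red blood cell score (0.0504).

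Within the breeds, HS minus TN at A_72_P716823 was -1.03 ± 0.25 (SE) for LW, -1.01 ± 0.25 for F1 and -0.80 ± 0.27 for Creole pigs. This passed in LW (adjusted p = 0.0361) and not in Creole (0.257) or F1 (0.0634). In LW 5 of the 26 family probes fell, all among these 7, against 1.5% of all tested probes. In Creole and in F1 no family probe passed, against 0.0716% and 0.421%, whereas at an unadjusted p under 0.05 there were 9 and 10 of the 26, against 11.1% and 16% of all tested probes. The interaction between breed and temperature did not pass for any family probe (smallest adjusted p = 0.897), and 0.00224% of all tested probes passed. At an unadjusted p under 0.05 there was 1 of the 26, against 5.23% of all tested probes.

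All 7 of these probes had every HS array below every TN array in F1, where 3.73% of all tested probes did. In LW the same 7 and O4483 (AKR7A2) were so separated, against 5.03% of all tested probes. In Creole none of the 7 was, and the 2 family probes that were separated there were O9215 (AKR1D1) and A_72_P063836 (AKR7A2), against 3.55%. The LW count of 5 called probes depended on single arrays, since it was 0 without LW HS replicate 2, LW TN replicate 2 or LW TN replicate 3, and 1 without LW HS replicate 3 or 4. It was also 0 with slide as a fixed block, while the difference at A_72_P716823 stayed between -1.15 and -0.93 over the alternatives.

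**Figure D3:**
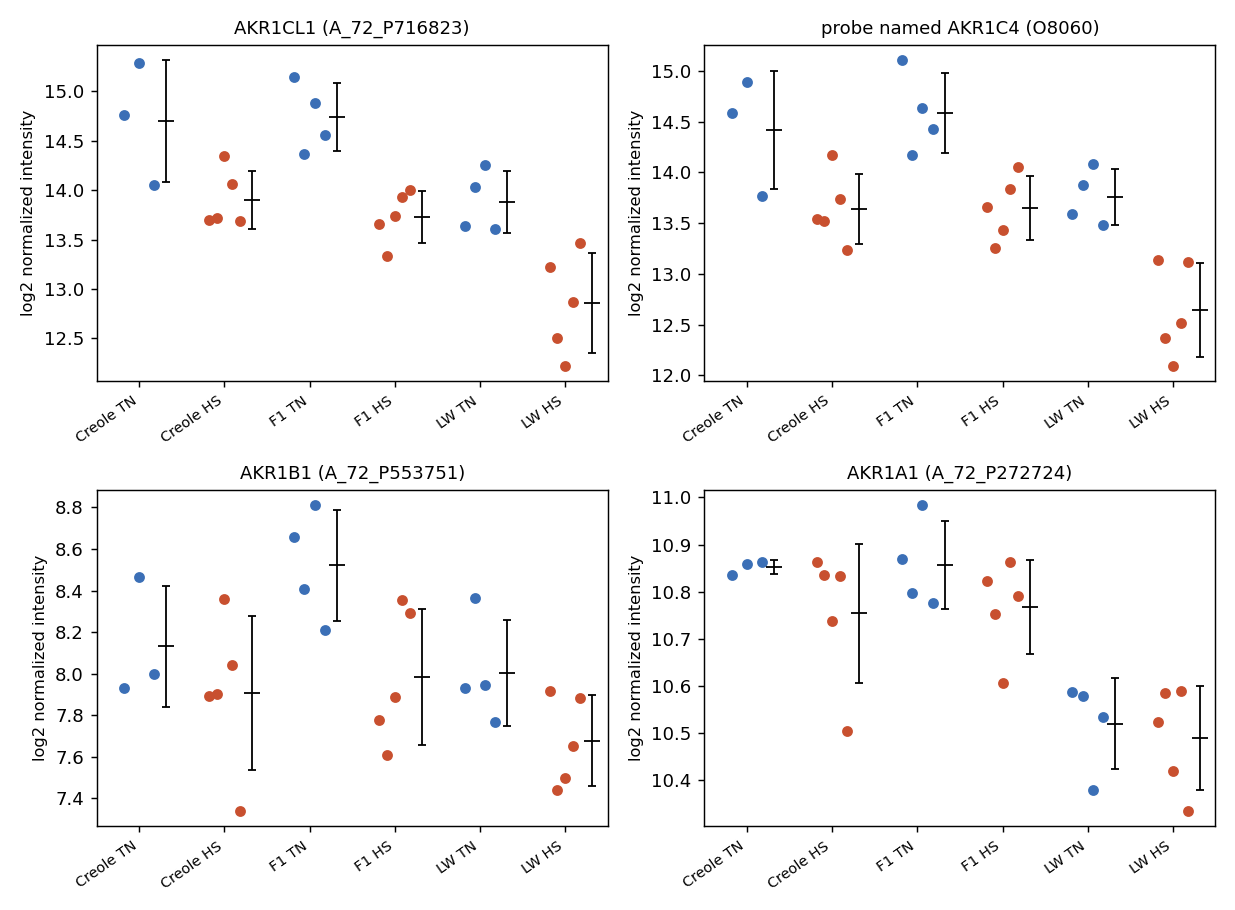
Log2 normalized intensity per array for one probe each of AKR1CL1, the AKR1C-named set, AKR1B1 and AKR1A1, by breed and temperature (blue TN, red HS), with group mean and SD in black. Each panel has its own axis. The AKR1CL1 and O8060 panels step down from TN to HS in each breed and are lowest in LW HS, whereas AKR1A1 is lower in LW at both temperatures.

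The same 7 probes were lower in LW than in Creole in the fit without tissue scores. All 7 calls were lost with the adipocyte score or the fibroblast and matrix score as a covariate, each of which moved with breed as given with the marker lists, and A_72_P716823 was then at -0.57 and -0.49. At A_72_P716823 the mean was 14.20 ± 0.575 (SD, n = 8) in Creole, 14.18 ± 0.600 (n = 9) in F1 and 13.31 ± 0.677 (n = 9) in LW. LW minus Creole was -0.95 ± 0.17 (SE, adjusted p = 0.00112), a 1.94-fold difference, and 7 of 9 LW arrays lay below every Creole array. At the other 6 probes 4 or 5 of 9 did, and the share of all tested probes so separated is not given here. LW minus Creole at the other 6 probes ran from -0.89 for O8059 to -0.67 for A_72_P354778, each past the threshold.

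F1 pigs were higher than LW at most of these probes and were not shown to differ from Creole. F1 minus Creole at A_72_P716823 was -0.09, with an interval from -0.44 to 0.27 (adjusted p = 0.922), and F1 minus LW was 0.87 ± 0.17 (SE, adjusted p = 0.00865). At O8060 the 2 differences were 0.07 (interval -0.29 to 0.43) and 0.92 (adjusted p = 0.00739). Of the 7 probes, 6 were higher in F1 than in LW, and A_72_P759584 was not called (0.55, adjusted p = 0.0867). With slide as a fixed block O9163 (adjusted p = 0.0523) and A_72_P354778 (0.0594) did not pass either. With the adipocyte score 5 family probes were higher in F1 than in LW (A_72_P716823 at 0.73, adjusted p = 0.0358), and with the fibroblast and matrix score none was (0.51, adjusted p = 0.178), both settings added after the data were seen. Without one array the call was lost for A_72_P354778, if that array was F1 TN replicate 1, F1 HS replicate 4 or LW HS replicate 2 or 3 (adjusted p up to 0.0572). Against the mid-parent F1 was higher by 0.13 to 0.50, with adjusted p from 0.274 to 0.847, and none of the 25 family probes other than AKR1E2 passed in that contrast by limma, where 0.00671% of all tested probes did. At an unadjusted p under 0.05 there were 9 of the 25, against 8.69% of all tested probes.

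At A_72_P716823 the group means were 14.74 ± 0.343 in F1 TN, 14.70 ± 0.618 in Creole TN, 13.90 ± 0.294 in Creole HS, 13.88 ± 0.313 in LW TN, 13.73 ± 0.265 in F1 HS and 12.86 ± 0.508 in LW HS. Neighbours differed by less than their SD, except at the steps from Creole TN to Creole HS and from F1 HS to LW HS.

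**Figure D4:**
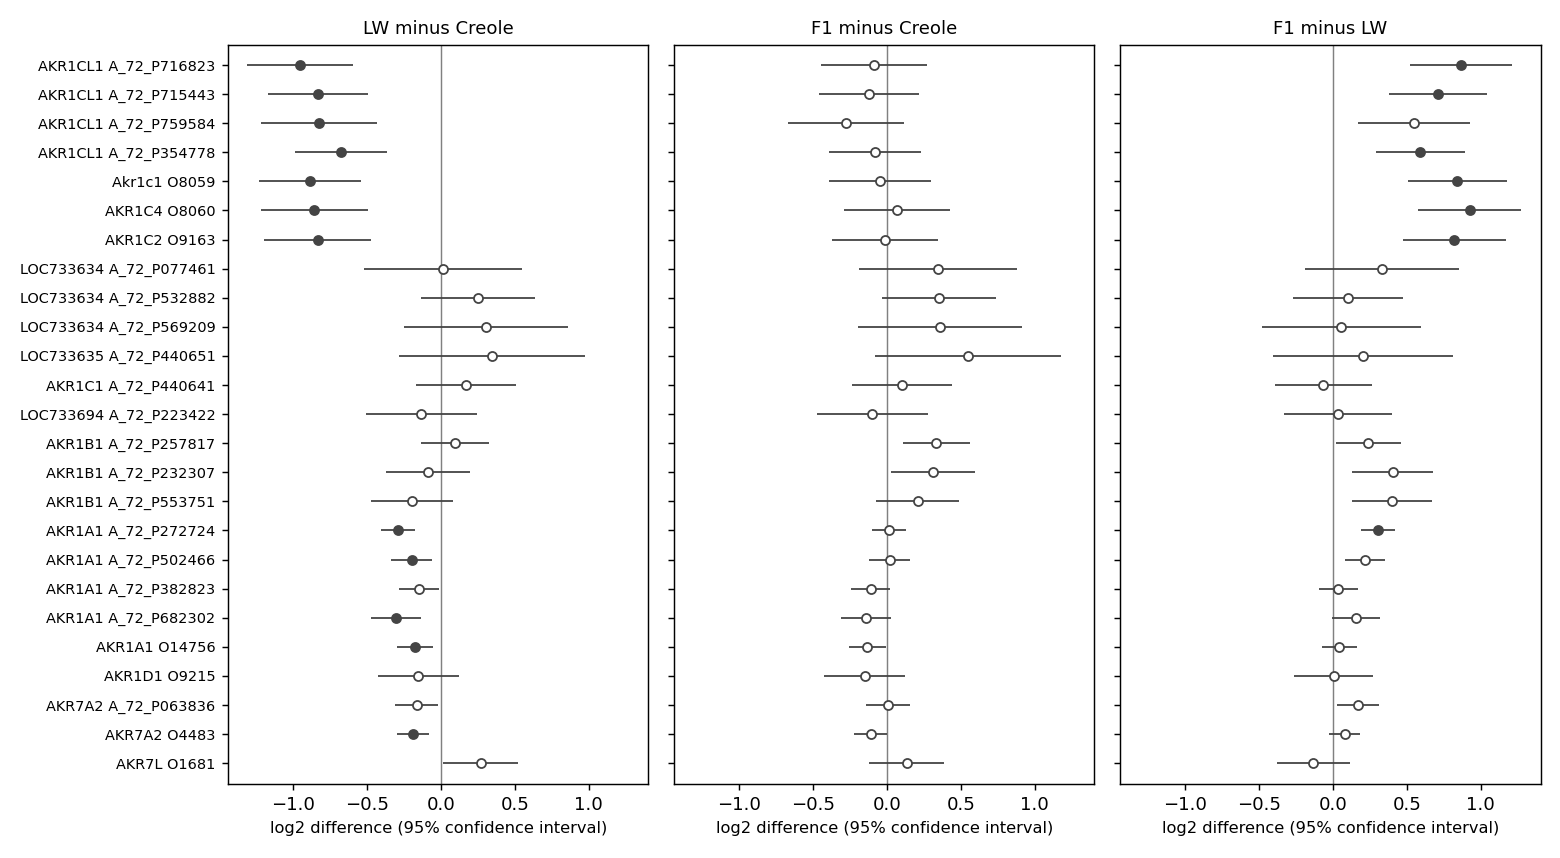
Log2 differences between breeds with 95% confidence intervals for the 25 tested family probes other than AKR1E2, at a fixed temperature. Filled points passed the adjusted threshold: 12 in LW minus Creole, 0 in F1 minus Creole and 7 in F1 minus LW.

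The 7 probes also varied together from pig to pig. After removing the 6 group means, Pearson correlations between them over the 26 arrays ran from 0.84 to 0.98 (21 pairs), and from 0.92 to 0.98 among the 4 AKR1CL1 probes (6 pairs). Probes on 1 array share its RNA and its normalization. Whether O8059, O8060 and O9163 read AKR1CL1, another AKR1C gene or several was not tested.

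For the AKR1C1 genes and LOC733635, which sit between AKR1CL1 and AKR1E2, no such response was shown, and a difference from AKR1CL1 was not tested. Their probes were dim, 4 of the 6 tested being well above background on 10 to 19 of 26 arrays. None of the 6 passed in any comparison, and HS minus TN ran from -0.20 for A_72_P077461 to 0.29 for A_72_P223422. At the latter, for AKR1C1 (gene 733694), the interval was -0.01 to 0.60 (adjusted p = 0.208). The intervals of all 6 held 0, and 5 of the 6 values were above it.

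LOC733634 and LOC733635 varied from pig to pig within groups. At A_72_P440651 the LW levels were 7.19, 5.65, 5.39 and 5.31 at TN and 6.31, 7.41, 7.37, 5.25 and 5.14 under HS, with 4 of these 9 not well above background. The overlapping probe A_72_P569209 gave 7.25, 5.90, 5.73 and 5.60 at TN and 6.24, 7.47, 7.37, 5.40 and 5.44 under HS, so the same LW pigs were high at both. Within groups these 2 probes correlated at 0.99, and the 4 probes of the 2 genes at 0.83 to 0.99. LW minus Creole at A_72_P440651 was 0.35 ± 0.31 (SE, adjusted p = 0.484), within the spread between pigs.

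**Figure D5:**
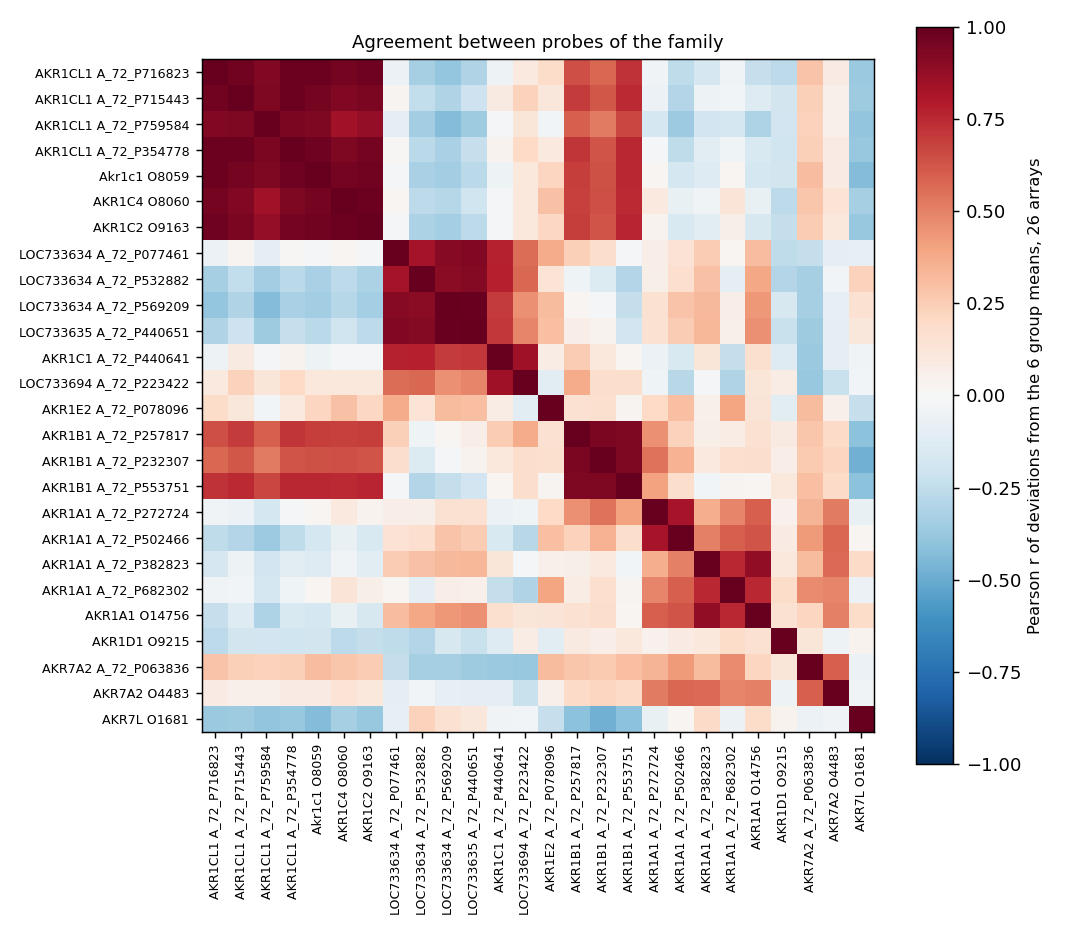
Pearson correlation between each pair of the 26 tested family probes over 26 arrays, on deviations from the 6 group means. The 7 AKR1CL1 and AKR1C-named probes form 1 block (0.84 to 0.98), the LOC733634 and LOC733635 probes another (0.83 to 0.99), and the AKR1B1 probes a further one (0.93 to 0.94).

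AKR1B1, aldose reductase, was lower under heat stress as well, by less. A_72_P553751 had levels from 7.77 to 8.81 (median 8.21) at TN and from 7.34 to 8.36 (median 7.89) under HS, so the temperatures overlapped. It fell by 0.37 ± 0.11 (SE, 1.29-fold, adjusted p = 0.0293). A_72_P232307 ranged from 9.61 to 10.81 (median 10.11) at TN and from 9.22 to 10.32 (median 9.71) under HS, and fell by 0.35 ± 0.11 (adjusted p = 0.0428). A_72_P257817 was lower by 0.21 ± 0.09 and did not pass (adjusted p = 0.137). Each of the 3 was below the TN mean of its breed in 14 of 15 HS arrays. The 2 probes that fell are these.
A_72_P553751 (AKR1B1): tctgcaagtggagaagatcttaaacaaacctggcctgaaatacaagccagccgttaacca
A_72_P232307 (AKR1B1): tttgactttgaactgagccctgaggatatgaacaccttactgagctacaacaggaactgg

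The AKR1B1 calls were close to the threshold. With slide as a fixed block A_72_P232307 did not pass (-0.34, adjusted p = 0.06) and A_72_P553751 did (-0.36, 0.0364), and over all 14 alternatives the call was lost in 7 and in 4. Leaving out any 1 of 15 arrays ended the call at A_72_P232307 (adjusted p up to 0.0853), and leaving out F1 TN replicate 1, F1 TN replicate 3, Creole TN replicate 2 or LW TN replicate 2 ended it at A_72_P553751 (up to 0.0617). By breed the A_72_P553751 difference was -0.22 in Creole, -0.54 in F1 and -0.32 in LW, none past the threshold. Breeds did not differ at AKR1B1 after adjustment. The nearest were F1 minus LW at A_72_P553751 and A_72_P232307, both 0.40 (adjusted p = 0.0777 and 0.0822). AKR1B1 varied with AKR1CL1 from pig to pig, with correlations of group deviations from 0.52 to 0.76 over 26 arrays between its 3 probes and the 7 above, which is given as a description.

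AKR1A1, aldehyde reductase, did not change with temperature at any of its 5 probes. Their HS minus TN differences ran from -0.07 for A_72_P272724 to 0.05 for O14756 and A_72_P682302 (adjusted p from 0.337 to 0.975). The interval at A_72_P272724 was -0.17 to 0.02, so a change as large as that of AKR1CL1 lies outside it.

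AKR1A1 was called lower in LW than in Creole at 4 of its 5 probes in the fit without tissue scores. These calls were all lost with the adipocyte score or the fibroblast and matrix score as a covariate, scores that themselves moved with breed. The differences stayed below 0. A_72_P272724 was at -0.26 (adjusted p = 0.136) and -0.27 (0.0508). A_72_P682302 was at -0.21 and -0.30, A_72_P502466 at -0.16 and -0.21, and O14756 at -0.16 and -0.23. The F1 minus LW call of A_72_P272724 was kept with the adipocyte score (0.0277) and lost with the fibroblast and matrix score (0.0976). The probe A_72_P272724 is shown because its LW levels lay apart from F1 (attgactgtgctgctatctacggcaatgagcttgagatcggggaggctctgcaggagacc). Its levels were from 10.33 to 10.59 (median 10.53) in LW, from 10.50 to 10.86 (median 10.84) in Creole and from 10.61 to 10.98 (median 10.80) in F1. All 9 F1 arrays lay above every LW array, while 1 Creole array lay within the LW range. The probe was picked after these values were seen. F1 arrays above every LW array numbered 7 at A_72_P502466, 3 at A_72_P682302 and 1 each at A_72_P382823 and O14756. The share of all tested probes so separated is not given here. LW minus Creole was -0.29 ± 0.06 (SE, 1.23-fold, adjusted p = 0.00165) and F1 minus LW was 0.30 ± 0.05 (adjusted p = 0.00706). F1 minus Creole was 0.01, with an interval from -0.11 to 0.13.

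The other AKR1A1 probes gave smaller or less settled breed differences. LW minus Creole was -0.30 at A_72_P682302 (adjusted p = 0.0153), -0.20 at A_72_P502466 (0.0497), -0.18 at O14756 (0.0484) and -0.15 at A_72_P382823 (0.129). The middle 2 of these calls were lost when 1 array was left out in 21 and 19 of 26 cases. Both were also lost with slide as a fixed block (adjusted p = 0.097 and 0.055). The same held without the filter on dim probes, without the intensity trend and with LW and Creole arrays only. F1 minus LW passed only at A_72_P272724 and was 0.22 at A_72_P502466 (adjusted p = 0.0578). Correlations of group deviations among the 5 probes ran from 0.36 to 0.88.

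AKR7A2 fell by a small amount under heat stress at 1 of its 2 probes. O4483 ranged from 12.35 to 12.67 (median 12.52) at TN and from 12.15 to 12.63 (median 12.37) under HS, and fell by 0.18 ± 0.04 (SE, 1.13-fold, adjusted p = 0.0097), with 14 of 15 HS arrays on the lower side. This call was lost with the red blood cell score (-0.15, adjusted p = 0.118) or the fibroblast and matrix score (-0.18, 0.0626) as a covariate. A_72_P063836 was lower by 0.17 ± 0.06 (adjusted p = 0.0528). LW minus Creole was -0.19 at O4483 (adjusted p = 0.02, lost with either the adipocyte or the fibroblast and matrix score) and -0.17 at A_72_P063836 (0.121). The AKR7L-named probe O1681, of no assigned pig gene, had differences of -0.03 for HS minus TN (adjusted p = 0.864) and 0.27 for LW minus Creole (0.15).

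AKR1D1 was read by O9215 at low levels. They were 6.17, 6.12 and 7.32 in Creole TN, and all other arrays lay between 5.76 and 6.25. HS minus TN was -0.18 ± 0.11 (SE, adjusted p = 0.297), and in Creole alone it was -0.62 (adjusted p = 0.191), which rests largely on that 1 array.

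Other genes of the pathways that these enzymes serve were counted in 7 lists, with 1 probe per gene. Each count is to be read against the 7.02% of all tested probes that fell under HS and the 7.43% that were lower in LW. Among NRF2-dependent antioxidant enzymes all 14 measured genes were on the lower side under HS and 7 fell, with a median of -0.28 against 0.0024 over all tested probes. NQO1, a quinone reductase, fell by 0.86, PGD of the pentose phosphate pathway by 0.49 and TKT (transketolase) by 0.35, with adjusted p of 2.6e-05, 0.000953 and 0.00114. In LW minus Creole 5 of the 14 were lower and none higher (median -0.21), among them TALDO1 (-0.70), TKT (-0.43) and GCLM (-0.55). Of 12 aldehyde dehydrogenases 3 fell under HS, ALDH1A1 by 0.36, ALDH9A1 by 0.21 and ALDH2 by 0.33, and all 12 were on the lower side (median -0.20). In LW 5 were lower, among them ALDH1L1 (-0.48), ALDH7A1 (-0.57) and ALDH1A1 (-0.45).

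In the polyol and fructose pathway 7 genes were measured. SORD, which turns the sorbitol made by AKR1B1 into fructose, fell by 0.33 under HS (adjusted p = 0.00483), the aldolase gene ALDOC rose by 0.19 (0.0489) and ALDOA differed by -0.19 (0.208). In LW minus Creole ALDOA (-0.36) and ALDOC (-0.23) were lower, and HK1 did not pass (-0.39, adjusted p = 0.109). Of 5 glucuronate and ascorbate genes RGN (regucalcin) fell under HS by 0.35 (0.00785) and UGP2 was lower in LW by 0.32 (0.0142), whereas CRYL1 (0.12) and XYLB (0.08) in HS minus TN and RGN (-0.27) and MIOX (0.15) in LW minus Creole did not pass.

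Of 13 prostaglandin genes 2 fell under HS, PTGDS (prostaglandin D synthase) by 1.20 (adjusted p = 0.0017) and PTGES2 by 0.40 (0.0341), and PTGER3 did not pass (0.48, 0.0523). PTGDS was also lower in LW than in Creole by 1.30 (0.0042), while PTGES3 (0.21) and PTGES (0.28) were higher. No gene of 9 for glycogen turnover passed in HS minus TN, where PYGL was at -0.15 and GANAB at 0.12 and where the list's median was -0.03. In LW 3 were lower and 2 higher, with GAA at -0.43 and PGM1 at -0.42 among the lower. Of 14 short-chain carbonyl reductases 1 fell, HSD17B8 by 0.24, and RDH10 (0.11) and CBR4 (0.21) did not pass. In LW RDH14 (-0.42) and DHRS7 (-0.48) were lower and CBR4 (0.40) was higher.

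The arrays carried the markers of fat, and some other marker lists moved with temperature or breed. Of 10 adipocyte markers 9 were tested, each well above background on all 26 arrays, and their score (mean log2 deviation of the listed genes) ran from -0.13 to 0.26 at TN and from -0.27 to 0.35 under HS. Under HS ADIPOQ rose by 0.16 and CIDEA fell by 0.43. The score was lower in LW (-0.27 to 0.02) than in Creole (0.04 to 0.35), without overlap, and F1 ran from -0.16 to 0.15. The fibroblast and matrix score, from 8 of 8 genes, ran from -0.90 to 0.31 at TN and from -0.24 to 0.65 under HS. It was higher under HS by 0.29, with 4 of its genes called higher (COL1A1, COL1A2, COL3A1 and DCN), and higher in LW than in Creole by 0.39, with 5 called higher. By breed it ran from -0.90 to 0.20 in Creole, from -0.39 to 0.15 among F1 and from -0.12 to 0.65 among LW pigs. The red blood cell score, from 4 of 8 genes, was lower under HS by 0.30 (TN -0.16 to 0.60, HS -0.61 to 0.44). Of its genes HBB fell by 0.85, and AHSP (-0.47), SLC4A1 (0.06) and ALAS2 (0.04) did not pass. The adrenal cortex score, from 5 of 7 genes, was lower by 0.37 (TN -0.09 to 0.51, HS -0.49 to 0.08), where STAR fell by 1.52 and NR5A1 by 0.30, and CYP11A1 (-0.02), HSD3B1 (0.07) and CYP21A2 (-0.07) did not pass. The endothelial score, from 7 of 7 genes, was higher in LW than in Creole by 0.22 (Creole -0.39 to 0.09, LW -0.02 to 0.16), with 1 gene called higher. In LW minus Creole the skeletal muscle and keratinocyte scores differed by -0.84 and 0.74, with no gene called and with ranges that overlapped. Skeletal muscle ran from -1.44 to 2.82 in Creole and from -2.42 to 1.94 in LW. Keratinocyte ran from -1.55 to 1.67 in Creole and from -1.20 to 2.41 in LW. In HS minus TN the macrophage, endothelial and hepatocyte scores differed by 0.13, -0.07 (CDH5 fell by 0.23) and 0.13, and keratinocyte and skeletal muscle scores by 0.84 and 0.51 with ranges that overlapped between TN (-1.31 to 2.41 and -2.42 to 1.16) and HS (-1.55 to 3.28 and -1.44 to 2.82).

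With the red blood cell score as a covariate 6 family probes fell under HS instead of 10, with A_72_P716823 at -0.82 (adjusted p = 0.00978). With the fibroblast and matrix score, a setting added after the data were seen, 6 fell, with A_72_P716823 at -0.61 (0.0091). The same 4 calls were lost in both, those of AKR1B1 (A_72_P553751 and A_72_P232307), A_72_P354778 and O4483. With the adipocyte score 8 fell, and both AKR1B1 calls were lost (adjusted p = 0.0616 and 0.0777). In LW minus Creole no family probe passed with the adipocyte score (A_72_P716823 at -0.57, adjusted p = 0.253) or with the fibroblast and matrix score (-0.49, 0.106), both added after the data were seen. The adipocyte score did not overlap between LW and Creole, so that fit cannot separate breed from the score. The share of all tested probes that passed in these fits is not given here, so the loss is no result about the family alone. The part of these tissue scores in the family's differences was not tested further.

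Slides held several groups each, and the heat response was recomputed within them. After centring on breed, HS minus TN at A_72_P716823 was below 0 on each of 5 slides, from -1.59 to -0.34, and so were the values of the other 6 probes of its block. With slide as a fixed block it was -0.94 (adjusted p = 0.000632). At A_72_P553751 of AKR1B1 the 5 values ran from -0.82 to -0.02. LW minus Creole, on the 4 slides that held both breeds, was below 0 on each for A_72_P716823 (-1.76 to -0.56) and for A_72_P272724 of AKR1A1 (-0.37 to -0.11). These values were centred on temperature means of all arrays, and on slide 5 LW was only at TN and Creole only under HS.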

How the data were processed

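For 26 one-colour porcine arrays the authors deposited scanner output with the raw median pixel intensity of every spot, its local background and spot flags, made with Agilent Feature Extraction 10.10.1.1 by the submitters' processing notes. The deposited series matrix holds log2 values of quantile-normalized intensity for 44104 probes and was used as an alternative. From these, median intensities without subtraction of background were quantile-normalized and logged to base 2 (limma 3.58.1, R 4.3.3). Up to 16 non-uniform spots per array were set to missing. From 68.5% to 76.6% of 60306 spots were well above background and none was saturated. The number of arrays limits the precision. Models used breed and temperature as fixed effects, or 6 group means, with lmFit and eBayes with a trend, checked on simulated data. Pen, slaughter day and parents, which the methods fit as random effects, were left out. The SEs and p-values thus take pigs of a pen or litter as independent and may be too small. Gene names came from accessions, then from symbols of 1 gene, in a Sscrofa11.1 table.

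Members and lists were chosen with earlier results of these data known. The genes named were every family probe, the 8 genes most like AKR1E2, its neighbours, and in each list the 3 genes with the smallest p in HS minus TN and in LW minus Creole, except some that are not reported here. Alternatives were other background and scaling, filters, slide blocks, weights, covariates and leaving out each array.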

Additional observations from a re-analysis of the deposited data

Results flagged for a closer look

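Among 130 sets of 1 tested probe in 1 group of 4 or 5 arrays, 6 had an array whose gap to the others was large for the group's range by Dixon's criterion, which is close to the 1 in 20 that chance alone gives. AKR1E2 in F1 TN was one, with replicate 2 at 7.40 against 9.63 to 9.86 in the other 3, a value given as a description only since the gene was chosen by its F1 levels. The same array was low at A_72_P063836 (AKR7A2), at 9.70 against 10.03 to 10.06. In F1 HS replicate 3 reached 7.18 at A_72_P223422 (LOC733694), the others lying between 6.01 and 6.19. A_72_P382823 (AKR1A1) stood at 13.72 in Creole HS replicate 2, against 13.33 to 13.38, and at 13.43 in F1 TN replicate 4, against 13.30 to 13.31. O1681 (AKR7L) stood at 8.59 in LW HS replicate 2, against 8.21 to 8.30. No family probe differed between breeds in its response to temperature by the interaction test, and none had every HS array of 1 breed above and every HS array of another below its TN mean.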

How the results depend on the processing

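The count of family probes that fell under HS, 10, stayed between 8 and 11 when 1 array was left out and was 6 with the red blood cell score and 6 with the fibroblast and matrix score as covariates. The LW minus Creole count of 12 stayed between 10 and 12 without single arrays. Over 13 alternatives it ran from 0, with the adipocyte score and with the fibroblast and matrix score, to 14. Breed counts are over the 25 probes other than AKR1E2. The F1 minus LW count of 7 was 6 to 9 without single arrays, 5 to 8 under 11 other alternatives and 0 with the fibroblast and matrix score. F1 minus Creole and F1 minus mid-parent gave 0 in each fit. HS minus TN in F1 gave 0 to 1 without single arrays and 3 with array weights. In LW it gave 0 to 7 without single arrays and 0 with slide as a fixed block. Creole and the interaction gave 0 in each case. The cause of these shifts was not tested. No probe called in the main fit changed direction in any alternative. Among probes that were not called, 5 of 16 in HS minus TN and 5 of 13 in LW minus Creole changed sign in some alternative. The lists of other genes held 15 to 19 called genes in HS minus TN and 20 to 24 in LW minus Creole over 3 ways of processing. With 75th percentile scaling the HS minus TN counts moved from 0 to 1 for glycogen, 3 to 5 for aldehyde dehydrogenases and 2 to 1 for polyol genes, and the LW minus Creole counts from 5 to 3 for glycogen, 3 to 1 for prostaglandin and 2 to 1 for polyol genes. No paired analysis was possible because the labels number no replicates across groups. Probes near background (AKR1C1, LOC733634, LOC733635) limit what can be seen of these genes.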

Other observations

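A_72_P302809 (LOC733635), which was too dim to be tested, was at 7.22 in LW TN replicate 3 and between 4.70 and 5.71 on the other 25 arrays.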
